A study of Mus musculus with 138 samples.

Results

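The lambdoid suture is the fibrous joint at the back of the skull roof, between the interparietal and the parietal bones. Its suture mesenchyme (SM), the unmineralized tissue between the advancing edges of the bones, was captured by laser microdissection from frozen sections of C57BL/6J mouse embryos at E16.5 and at E18.5. The libraries were chosen by their labels (lambdoid suture, SM region), which gave 5 libraries at E16.5 and 5 at E18.5, 10 of the 138 samples of the series. The wider study compared SM and osteogenic fronts (OFs), the bone-forming edges, of several calvarial sutures and was centred on the coronal suture. All embryos were wild type (WT) and received no treatment, so that age is the only labelled factor that separates both groups. Each library came from a separate embryo. The 5 E16.5 embryos came from 2 litters (replicates 1 to 4 from 1 litter and replicate 5 from another) and the 5 E18.5 embryos from 4 litters (replicates 3 and 4 shared a litter), so that no litter held both ages and age cannot be told apart from litter. RNA of the captured tissue was amplified before library construction, and each value is the mixture of every cell in the captured area.

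Suture mesenchyme holds the cells from which osteoblasts are recruited to the OFs, together with fibroblasts that deposit the collagenous matrix joining the bones, blood vessels and resident immune cells. A suture remains patent while its mesenchyme is kept from mineralizing, and the skull roof grows while cells of the mesenchyme divide and some of them enter the osteoblast lineage under the transcription factors Runx2 and Sp7. Late in gestation the matrix between calvarial bones matures and vessels spread through the tissue.

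The libraries held 8098490 to 9667927 counts at E16.5 and 7305627 to 8376486 at E18.5, and between 24663 and 25302 genes with a count at E16.5 against 22146 to 24302 at E18.5. Genes detected did not overlap between ages (exact two-sided permutation test, p = 0.00794, the smallest that 5 against 5 allows), nor did the share of counts in the 10 most abundant genes, 23.0 to 26.8% at E16.5 and 29.4 to 34.3% at E18.5 (p = 0.00794, the same test). Mitochondrial genes took 12.8 to 16.9% of counts at E16.5 and 16 to 22.9% at E18.5 (exact permutation p = 0.0159). These library measures thus differed between the age groups, which also differed in litter. The permutation test takes the embryos as independent, although some shared a litter. With mitochondrial genes left out before scaling, 557 genes changed with age (164 higher and 393 lower), against 585 with them, and the part of the other measures in the results was not tested. Replicate 3 of E18.5 stood apart from the others on the first principal component of the 10 libraries (22.2% of the variance), at 114.7 against at most 24.3 for any other, and replicate 2 of E18.5 lay lowest on the second (18.2%), at -88.8. The median correlation of an E16.5 library with the others of its age was 0.95 to 0.963, and with E18.5 libraries 0.92 to 0.934. Each E18.5 library correlated no better with its own age (0.904 to 0.926) than with E16.5 (0.908 to 0.936). Replicate 5 of E16.5, the only embryo of its litter, held the most skeletal muscle RNA, described below.

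The captured region was checked against the OFs of the same embryos (10 interparietal and 10 parietal libraries). Ibsp, a mineralized matrix protein, was lower in SM than in the OFs, with a difference of -6.74 on the log2 scale at E16.5 and of -7.38 at E18.5 (edgeR quasi-likelihood test, Benjamini-Hochberg adjusted p = 4.92e-10 and 4.56e-11). Alpl, the mineralizing alkaline phosphatase, differed by -3.48 and -4.70, and the osteoblast transcription factor Sp7 by -2.85 and -3.91. Of all genes tested, 12.8% were lower in SM at E16.5 and 15.8% at E18.5. Prrx1, a transcription factor of craniofacial mesenchyme, was higher in SM by 0.89 and 0.79, as was Dkk3, a secreted glycoprotein related to Wnt antagonists, by 1.14 and 1.21 (background 9.84% and 12.2% of genes higher in SM). Ibsp varied from 5.03 to 189 CPM at E16.5 and 1.04 to 169 CPM at E18.5 within SM.

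Between E16.5 and E18.5, 585 of 19768 genes tested in lambdoid SM changed (2.96%, edgeR quasi-likelihood test, adjusted p under 0.05). Of these, 155 (0.784% of genes tested) rose and 430 (2.18%) fell. Endothelial genes, some collagen chains and single regulators such as Socs2 were among those that rose, and genes of DNA replication and mitosis were among those that fell. The median change of the called genes was 0.99 on the log2 scale for those that rose and -0.92 for those that fell, and 263 changed at least 2-fold. The values of the 5 libraries of one age all lay above those of the other age for 575 genes (2.91%) higher and 812 (4.11%) lower at E18.5 (7.02% in either direction), which included 124 of the 155 and 303 of the 430. The balance of directions was not stable. Of the called genes 26.5% were higher at E18.5 with TMM scaling, 34.5% with median-ratio size factors and 9.65% with total counts alone, which shifted the median of all genes to -0.12, from 0.01. With TMM scaling kept, it was 47.2% in a fit of the 10 libraries alone and 44.1% with litters summed, and it was 37.1% with DESeq2. With limma-voom, the transformation that the paper's methods also used for the bulk libraries, 223 genes changed (78 higher and 145 lower). Without E18.5 replicate 3, which stood apart, 578 genes changed, 142 of them higher and 436 lower, and without E16.5 replicate 1 the count was 386, of which 98 were higher.

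**Figure D1:**
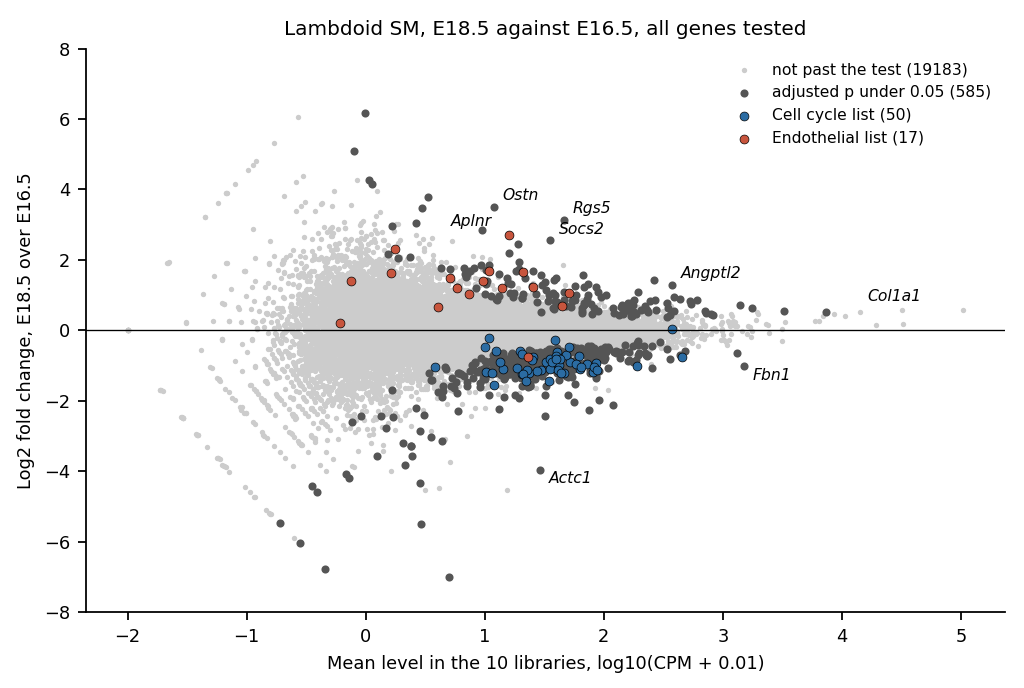
Change with age of each of the 19768 genes tested in lambdoid SM: log2 fold change E18.5 over E16.5 (vertical) against the mean level in the 10 libraries, log10(CPM + 0.01) (horizontal). Dark points are the called genes, 155 above 0 and 430 below, and coloured points are the cell cycle (50 genes) and endothelial (17 genes) lists, of which all but 1 lie below 0 and above 0 respectively.

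Levels are given as CPM, the count scaled to a common (TMM-adjusted) library size, in replicate order. Among the genes with the largest rises whose libraries did not overlap, Socs2, a feedback inhibitor of growth hormone and cytokine receptor signalling (chr10:95385362-95417180 on the minus strand, mm10), was measured at 10.2, 11.1, 7.71, 11.1 and 11 CPM at E16.5 and 58.1, 72.5, 61.7, 62.6 and 45.3 CPM at E18.5. Every E18.5 library lay above every E16.5 library, with little spread within either age (log2 fold change 2.55, SE 0.23, adjusted p = 6.9e-14, edgeR quasi-likelihood test). Socs2 kept its call under each of the 22 alternatives. Enpp1, the ectoenzyme that makes the mineralization inhibitor pyrophosphate (chr10:24637914-24712159 on the minus strand), was measured at 3.96, 6.19, 8.07, 6.52 and 4.9 CPM at E16.5 and 24.8, 23.1, 24.5, 60.2 and 28.5 CPM at E18.5. The groups were separate, with E18.5 replicate 4 highest (log2 fold change 2.44, SE 0.36, adjusted p = 4.3e-06), and the call was lost only with limma-voom.

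Ostn encodes osteocrin, a secreted peptide that binds the natriuretic peptide clearance receptor (chr16:27307489-27351212 on the plus strand). It was measured at 1.89, 2.71, 1.9, 1.58 and 1.5 CPM at E16.5 and 18.7, 42.4, 15.1, 18.7 and 14.1 CPM at E18.5. The E18.5 values were all above those of E16.5 but spread widely (log2 fold change 3.50, SE 0.97, adjusted p = 0.025, edgeR). Its adjusted p reached 0.0707, 0.0613, 0.0613 and 0.0712 without E16.5 replicates 1, 3, 4 and 5 and 0.0898 without E18.5 replicate 2, and it ranged from 2.49e-05 to 0.0898 over all alternatives. Nfatc2, a calcineurin-regulated transcription factor, lay at 8.7 to 14 CPM at E16.5 and 22.2 to 59 CPM at E18.5 (log2 fold change 1.70, SE 0.37, adjusted p = 0.00176). Lin7a, a PDZ scaffold protein of cell junctions, lay at 6.24 to 13.6 CPM at E16.5 and 15.5 to 38.2 CPM at E18.5 (log2 fold change 1.68, SE 0.38, adjusted p = 0.00341). Lrrc15, a membrane protein of mesenchymal cells that is induced by TGF-beta, was measured at 26.9, 40.5, 36.6, 31.7 and 31.2 CPM at E16.5 and 128, 94.5, 107, 109.5 and 60.5 CPM at E18.5 and the groups were again separate (log2 fold change 1.58, SE 0.29, adjusted p = 0.000139).

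The 12 largest rises by the same rule also held the vascular genes Aplnr, Podxl, Rgs5, Flt1 and Kdr, and Igfbp7, an IGF-binding protein, which are described with their groups below. Of the 12, Rgs5 had the widest range at E18.5, from 27.5 to 212 CPM, its highest value in replicate 3.

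Among the largest falls, Cdkn1a, which encodes the cyclin-dependent kinase inhibitor p21 (chr17:29090976-29100727 on the plus strand), was measured at 27.9, 32.5, 27, 19.9 and 32.7 CPM at E16.5 and 6.81, 4.53, 7.61, 9.86 and 10.7 CPM at E18.5. All E18.5 libraries were below all E16.5 libraries (log2 fold change -1.82, SE 0.31, adjusted p = 5.67e-05, edgeR), and the call was lost only with limma-voom. Psat1, an enzyme of serine synthesis (chr19:15904678-15947337 on the minus strand), was measured at 61.8, 74.9, 59.3, 50.3 and 61.2 CPM at E16.5 and 14, 21.8, 37.3, 22 and 21.1 CPM at E18.5. The groups were separate and the call held in each of the 22 alternatives (log2 fold change -1.40, SE 0.22, adjusted p = 1.87e-05). Ackr3, the scavenging receptor of the chemokine CXCL12 (chr1:90203980-90216751 on the plus strand), was measured at 59.9, 41.9, 43.1, 44.7 and 56.2 CPM at E16.5 and 21.9, 24, 11.8, 11.5 and 12.7 CPM at E18.5, and fell without overlap (log2 fold change -1.59, SE 0.32, adjusted p = 0.000602). Scd1, which makes monounsaturated fatty acids, lay at 19.8 to 46.2 CPM at E16.5 and 7.96 to 17.1 CPM at E18.5 (log2 fold change -1.59, SE 0.30, adjusted p = 0.000204).

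Osr1, a transcription factor of embryonic connective tissue, was measured at 24.1, 14.7, 18.2, 10.8 and 40.1 CPM at E16.5 and 5.05, 7.59, 4.5, 3.94 and 2.06 CPM at E18.5. The highest value belonged to E16.5 replicate 5, and without it the log2 fold change was -1.86 and the adjusted p 0.0809, with an adjusted p of 0.0609 without E18.5 replicate 5 (with all 10 libraries: log2 fold change -2.22, SE 0.57, adjusted p = 0.0125; 3.69e-05 to 0.0809 over the alternatives). Sdk1, an adhesion protein, showed the same order, at 18.7 to 58 CPM at E16.5 and 3.43 to 10.7 CPM at E18.5 with E16.5 replicate 5 highest (log2 fold change -1.92, SE 0.45, adjusted p = 0.00414). It had an adjusted p of 0.0501 without that library (0.000298 to 0.0501 over the alternatives). Gap43, a growth cone protein of extending axons, lay at 22.7 to 57.5 CPM at E16.5 and 5.5 to 16.8 CPM at E18.5 (log2 fold change -1.58, SE 0.42, adjusted p = 0.0164). Its adjusted p was 0.0561 without E16.5 replicate 1, 0.0938 without E16.5 replicate 5 and 0.0863 without E18.5 replicate 5 (0.000121 to 0.0938 over the alternatives). The remaining large falls were Actc1, a muscle actin described with skeletal muscle below, and genes of the cell cycle.

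**Figure D2:**
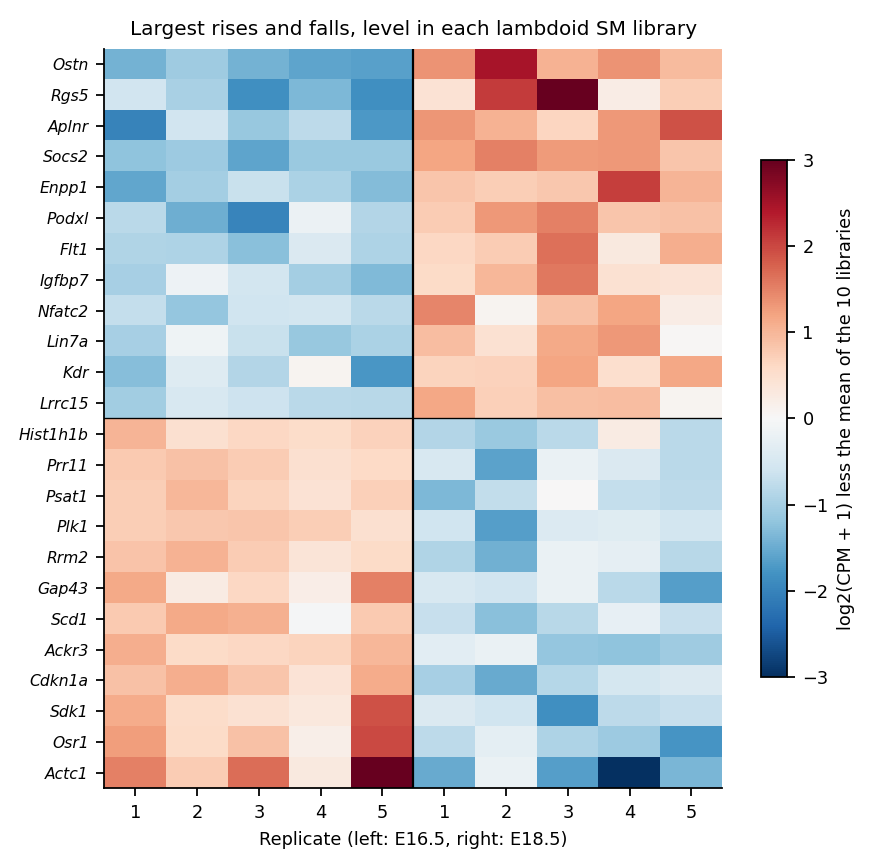
Levels of the 12 largest rises and 12 largest falls (rows) in the 10 lambdoid SM libraries (columns, by age and replicate), as log2(CPM + 1) less the mean of the 10 libraries. Every gene is higher in all 5 libraries of one age by the rule that chose it, while the size of the step differs between libraries, as for Rgs5 in E18.5 replicate 3 and Osr1 in E16.5 replicate 5.

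Genes of the cell cycle fell as a group. Of 50 members tested, 39 fell and none rose, against 2.18% of all genes lower at E18.5. The median change was -0.97 on the log2 scale (0.01 over all genes tested), 49 had a negative estimate, and 32 did not overlap between ages (background 4.11%). The summed level of the 50 was 3632, 3788, 3556, 3428 and 2987 CPM at E16.5 and 1799, 1469, 2818, 2306 and 1757 CPM at E18.5, so that even the E18.5 library with the highest sum, replicate 3, lay below the lowest of E16.5. The number that fell was between 31 and 41 when any 1 library was left out, and 26 with limma-voom. It was 28 with only E16.5 replicates 1 to 4 and E18.5 replicates 2 to 5 (different litters that share a 17 in the label) and 14 with litters summed. Ccnd2, cyclin D2, was the only member with a positive estimate, 0.05 (adjusted p = 0.952). In bulk tissue, fewer cells of a type and less RNA per cell cannot be told apart. This list and those below were chosen with earlier results of these data known, so a count beside a background share is a description and no test.

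Rrm1, the large subunit of ribonucleotide reductase, which supplies deoxynucleotides for DNA synthesis (chr7:102441695-102469771 on the plus strand), was measured at 135, 121, 107, 105 and 132 CPM at E16.5 and 56, 46.2, 76.3, 51.6 and 46.3 CPM at E18.5. The E18.5 values were all below those of E16.5 (log2 fold change -1.12, SE 0.15, adjusted p = 1.49e-06, edgeR). Its small subunit Rrm2 (chr12:24708241-24714146 on the plus strand) was measured at 54.9, 63.2, 51.7, 39.5 and 44.9 CPM at E16.5 and 15.6, 10.4, 26.1, 24.5 and 16.4 CPM at E18.5, again without overlap (log2 fold change -1.45, SE 0.22, adjusted p = 5.11e-06). Uhrf1, which maintains DNA methylation through replication (chr17:56303321-56323486 on the plus strand), lay at 52 to 74.3 CPM at E16.5 and 16.9 to 32.8 CPM at E18.5 (log2 fold change -1.21, SE 0.17, adjusted p = 2.02e-06). Among genes of G2 and mitosis, Ccna2, cyclin A2, lay at 70.8 to 98.6 CPM at E16.5 and 24.1 to 60.3 CPM at E18.5 (log2 fold change -1.09, SE 0.17, adjusted p = 1.8e-05). Plk1, a mitotic kinase (chr7:122159439-122169873 on the plus strand), was measured at 32.8, 34.6, 35.1, 32.8 and 27.6 CPM at E16.5 and 12.4, 5.51, 14.5, 14.7 and 13 CPM at E18.5, with E18.5 replicate 2 lowest (log2 fold change -1.44, SE 0.26, adjusted p = 0.000142). Ncaph, a condensin subunit outside the list, lay at 34.2 to 41.4 CPM at E16.5 and 10.04 to 26.6 CPM at E18.5 (log2 fold change -1.03, SE 0.16, adjusted p = 7.4e-06). Prr11, also outside the list, a gene of late cell cycle expression (chr11:87089153-87108708 on the minus strand), lay at 33 to 43.6 CPM at E16.5 and 6.98 to 20.1 CPM at E18.5 (log2 fold change -1.39, SE 0.22, adjusted p = 2.03e-05). Hist1h1b, a replication-dependent linker histone, lay at 18 to 26.8 CPM at E16.5 and 5.26 to 15.3 CPM at E18.5, with E18.5 replicate 4 above the other 4 of its age (log2 fold change -1.37, SE 0.36, adjusted p = 0.0158). It missed the threshold without E16.5 replicate 1 (adjusted p = 0.0589) or without E18.5 replicate 1, 2 or 5 (0.0654, 0.0812 and 0.0547; 3.66e-05 to 0.12 over the alternatives). All of the others of this paragraph kept their call without any single library.

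The CCAAT box, which NF-Y binds, and the cell cycle homology region (CHR) are elements that many cell cycle promoters share, so the RefSeq promoter windows (GRCm38.p6) of the fallen genes were searched for CCAAT or its complement ATTGG, and for TTTGAA or its complement TTCAAA, in the 250 bases before the RefSeq start. A window was found for 32 of the 39 fallen members, and 27 of the 32 (84.4%) held a CCAAT box. It was present in 3 of 7 members that did not pass the test, 174 of 322 genes lower at E18.5 (54.0%), 35 of 109 genes higher (32.1%) and 4760 of 11941 genes tested (39.9%), and in 37.5% of all genes of the table. TTTGAA was present in 9 of 32 fallen members (28.1%) and in 2 of 7 that did not pass (28.6%). It was present in 60 of 322 genes lower at E18.5 (18.6%) and 13 of 109 genes higher (11.9%), against 13.2% of genes tested and 18.3% of all genes. A match to these letters is a description of the window and not a binding site. The last 120 bases before the RefSeq start of 5 of the genes above are shown, because they held the boxes close to it. This start differs by some bases from that of the GENCODE coordinates given above for Rrm2, Uhrf1, Plk1 and Prr11. Capitals mark CCAAT and ATTGG.
Rrm1, chr7:102441575-102441694 on the plus strand: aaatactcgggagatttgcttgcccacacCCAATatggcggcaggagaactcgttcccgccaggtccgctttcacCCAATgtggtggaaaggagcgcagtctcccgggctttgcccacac
Rrm2, chr12:24708134-24708253 on the plus strand: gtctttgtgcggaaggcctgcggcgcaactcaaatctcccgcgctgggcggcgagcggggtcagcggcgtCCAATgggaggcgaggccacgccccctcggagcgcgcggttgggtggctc
Uhrf1, chr17:56303217-56303336 on the plus strand: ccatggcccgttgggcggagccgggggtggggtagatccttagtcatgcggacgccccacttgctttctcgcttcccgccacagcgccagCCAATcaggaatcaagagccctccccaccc
Plk1, chr7:122159315-122159434 on the plus strand: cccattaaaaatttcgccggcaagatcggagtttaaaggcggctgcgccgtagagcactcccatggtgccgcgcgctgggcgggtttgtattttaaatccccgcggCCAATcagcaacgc
Prr11, chr11:87108715-87108834 on the minus strand: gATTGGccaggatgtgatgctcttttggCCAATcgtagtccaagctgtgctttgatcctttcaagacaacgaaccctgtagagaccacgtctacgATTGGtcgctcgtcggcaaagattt
The Rrm1 window held 2 boxes in the same orientation, Prr11 held 3 of which 2 were inverted, and Rrm2, Uhrf1 and Plk1 held 1 each.

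Endothelial genes rose. Of 17 markers tested, 9 rose and none fell (background 0.784% higher), with a median change of 1.24 on the log2 scale and a positive estimate for 16. The summed level was 127, 160, 149, 210 and 160 CPM at E16.5 and 339, 290, 356, 262 and 377 CPM at E18.5, without overlap. The count of 9 fell to 4 without E16.5 replicate 1 or replicate 5, to 6 without E18.5 replicate 3 or with total counts alone, and to 1 with limma-voom. Aplnr, the apelin receptor of sprouting vessels (chr2:85136225-85139923 on the plus strand), was measured at 1.89, 6.77, 4.26, 5.77 and 2.5 CPM at E16.5 and 27.8, 22.9, 17.1, 27.5 and 42.6 CPM at E18.5. Every E18.5 library was above every E16.5 library (log2 fold change 2.70, SE 0.42, adjusted p = 7.51e-06, edgeR). Kdr, the principal VEGF receptor (chr5:75932827-75978458 on the minus strand), was measured at 6.36, 12.8, 8.71, 18.1 and 4.4 CPM at E16.5 and 27.6, 27.9, 39.97, 24.7 and 39.1 CPM at E18.5, likewise separate (log2 fold change 1.66, SE 0.29, adjusted p = 7.33e-05). Pecam1, an endothelial adhesion molecule, lay at 8.1 to 23.5 CPM at E16.5 and 25.8 to 53.8 CPM at E18.5 (log2 fold change 1.24, SE 0.27, adjusted p = 0.00158). The secreted factor Egfl7 lay at 2.84 to 9.4 CPM at E16.5 and 11.1 to 17.9 CPM at E18.5 (log2 fold change 1.41, SE 0.36, adjusted p = 0.0112), with an adjusted p of 0.0652 without E16.5 replicate 1 (0.000188 to 0.242 over the alternatives).

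Cdh5, Emcn, Eng, Robo4 and Sox18 made up the rest of the 9, with changes between 0.70 and 1.69. All 5 missed the threshold without E16.5 replicate 5 and with limma-voom. Eng missed it without any single library other than E18.5 replicates 2 and 3 (adjusted p = 0.0543 to 0.215), and Sox18 without E16.5 replicate 1, 2 or 5 or E18.5 replicate 2, 3 or 4 (0.0526 to 0.102). Cdh5 missed it without E16.5 replicate 1, 3 or 5 or E18.5 replicate 3 (0.0505 to 0.0893), Emcn without E16.5 replicate 5 or E18.5 replicate 3 (0.0808 and 0.0668), and Robo4 without E16.5 replicate 1 or 5 (0.0668 and 0.0546). Over the alternatives their adjusted p ranged from 0.00017 to 0.558. Tek, the angiopoietin receptor, was the only member with a negative estimate, at 27, 18.6, 25.4, 15.7 and 59.6 CPM at E16.5 and 20.3, 23.1, 20.5, 10.7 and 11.9 CPM at E18.5 (log2 fold change -0.76, SE 0.40, adjusted p = 0.449). Its E16.5 replicate 5 value stood far above the others, and the ages overlapped. Outside the list, the second VEGF receptor Flt1 lay at 5.9 to 11 CPM at E16.5 and 19.1 to 50.3 CPM at E18.5 (log2 fold change 1.96, SE 0.33, adjusted p = 4.83e-05). Podxl, a sialomucin of the endothelial surface, lay at 2.27 to 10.3 CPM at E16.5 and 20.7 to 35.4 CPM at E18.5 (log2 fold change 2.20, SE 0.36, adjusted p = 2.35e-05). Both were called in all 22 alternatives. Their separation between ages, like that of Aplnr and Kdr, was a condition of the rule that named them among the largest rises.

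Of 12 pericyte and smooth muscle markers, 2 rose (background 0.784%), none fell and the median change was 0.34. Estimates were positive for 8 and negative for 4, namely Acta2 (-0.74), Des (-2.26), Myh11 (-1.02) and Tagln (-0.14), none of them called. Rgs5, a regulator of G-protein signalling in pericytes (chr1:169655501-169695813 on the plus strand), was measured at 15.4, 11.5, 5.8, 8.56 and 5.8 CPM at E16.5 and 31.9, 104, 212, 27.5 and 40.00 CPM at E18.5. E18.5 replicates 2 and 3 were well above the other 3, and all 5 were above E16.5 (log2 fold change 3.14, SE 0.54, adjusted p = 6.72e-05, edgeR). Mcam lay at 4.7 to 15.2 CPM at E16.5 and 11.8 to 33 CPM at E18.5 with overlap (log2 fold change 0.95, SE 0.29, adjusted p = 0.0499). Its adjusted p was 0.0545 to 0.226 without any of E16.5 replicates 1, 2, 3 and 5 or E18.5 replicates 1, 2, 3 and 5 (0.0173 to 0.422 over the alternatives). The summed level of the list was 420 to 506 CPM at E16.5 and 470.0 to 677 CPM at E18.5, so the ages overlapped. Col4a1, a collagen chain of basement membrane, lay at 106 to 166 CPM at E16.5 and 167 to 223 CPM at E18.5 (log2 fold change 0.69, SE 0.18, adjusted p = 0.0133). Its partner chain Col4a2 lay at 96.8 to 157 CPM at E16.5 and 152 to 248 CPM at E18.5 (log2 fold change 0.77, SE 0.20, adjusted p = 0.0115). Col4a1 missed the threshold without E16.5 replicate 3 (adjusted p = 0.0508) or replicate 5 (0.0501; 0.00156 to 0.14 over the alternatives). Col4a2 missed it without E18.5 replicate 5 (0.0532; 0.0023 to 0.109).

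**Figure D3:**
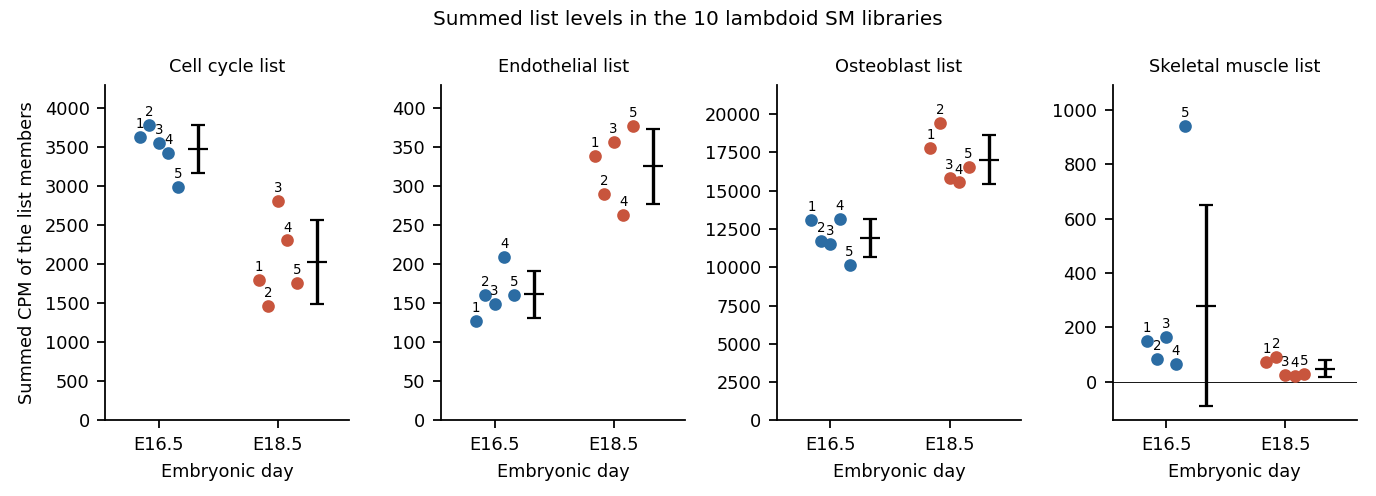
Summed level (CPM, linear axis) of the cell cycle, endothelial, osteoblast and skeletal muscle lists in each lambdoid SM library, with bars at the mean ± SD of 5 and numbers for the replicate. Cell cycle sums are 2987 to 3788 CPM at E16.5 and 1469 to 2818 at E18.5, endothelial sums 127 to 210 and 262 to 377, and the skeletal muscle sum of E16.5 replicate 5 is 939. The osteoblast sum follows Col1a1, which fibroblasts express too, while the called members of that list, Sp7 and Alpl, fell.

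Of 20 osteoblast transcription factors tested, 1 rose and 4 fell (background 0.784% higher and 2.18% lower), with a median of -0.23. Falls made up 73.5% of the calls over all genes, so that 4 of 5 is no direction of its own. Sp7, required for osteoblast differentiation (chr15:102356606-102367182 on the minus strand), was measured at 60.4, 118, 94.6, 49.9 and 35.5 CPM at E16.5 and 17.3, 10.9, 45.5, 27.6 and 41.8 CPM at E18.5. Its highest E18.5 values overlapped the lowest of E16.5 (log2 fold change -1.32, SE 0.29, adjusted p = 0.00229, edgeR), and the call was lost with litters summed. Runx2, which acts upstream of Sp7, was not called, at 327 to 639.6 CPM at E16.5 and 316 to 586 CPM at E18.5 (log2 fold change -0.30, SE 0.13, adjusted p = 0.316). Runx1, a related transcription factor of skeletal progenitors, lay at 17.5 to 38.1 CPM at E16.5 and 40.1 to 61.8 CPM at E18.5, without overlap (log2 fold change 0.81, SE 0.18, adjusted p = 0.00172). It lost its call with litters summed and with limma-voom.

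Dlx3, a homeobox factor of osteoblasts, was measured at 1.98, 14.1, 3.99, 0.745 and 1.6 CPM at E16.5 and 0, 0, 0.857, 0 and 0.917 CPM at E18.5, highest in E16.5 replicate 2 (log2 fold change -3.58, SE 0.81, adjusted p = 0.00305, edgeR). Without that library the log2 fold change was -2.47 and the adjusted p 0.133 (3.03e-05 to 0.379 over the alternatives). Mef2c lay at 63.5 to 151 CPM at E16.5 and 38.8 to 80.9 CPM at E18.5 (log2 fold change -0.79, SE 0.23, adjusted p = 0.0324). Here the adjusted p was 0.306 and 0.089 without E16.5 replicates 2 and 3 and 0.0954 to 0.148 without E18.5 replicate 1, 2 or 4 (0.00101 to 0.483 over the alternatives). E16.5 replicate 2, the highest for Sp7, Dlx3 and Mef2c, was also the library with the most Ibsp, 189 CPM against 5.03 to 37.9 in the other 4 of its age. The part of osteoblast RNA in these falls was not tested.

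Of 26 genes of bone matrix and mineralization, 2 rose (Enpp1, above, and Tnn, below) and 2 fell (background 0.784% and 2.18%), with a median of -0.18. Alpl, which breaks down pyrophosphate (chr4:137741733-137796384 on the minus strand), was measured at 34.7, 68.5, 65.4, 28.5 and 20.2 CPM at E16.5 and 11.3, 10.9, 28, 11.5 and 26.2 CPM at E18.5, with overlap (log2 fold change -1.30, SE 0.31, adjusted p = 0.00515, edgeR). Its adjusted p was 0.052 without E16.5 replicate 2 (0.000564 to 0.324 over the alternatives). Enpp1 and Alpl, enzymes that make and break down pyrophosphate, thus changed in opposite directions. Fam20c, the kinase of secreted bone proteins, lay at 1.58 to 7.7 CPM at E16.5 and 0.107 to 2.09 CPM at E18.5 (log2 fold change -2.39, SE 0.56, adjusted p = 0.00441). Col1a1, the main chain of bone and fibrous collagen, was at 12921, 11212, 11269, 13068 and 10049 CPM at E16.5 and 17769, 19399, 15521, 15489 and 16391 CPM at E18.5. All E18.5 values were above all E16.5 values, while the test across all genes was not passed (log2 fold change 0.53, SE 0.18, adjusted p = 0.102). Of the 12 osteoblast cell type markers, 2 fell (Sp7 and Alpl) and none rose. Their summed level, 10138 to 13165 CPM at E16.5 and 15544 to 19430 CPM at E18.5, followed Col1a1, which fibroblasts express too.

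Of 21 markers of suture stem cells and mesenchyme, 2 rose (Mcam, above, and Angptl2; background 0.784%) and none fell (background 2.18%), with a median of 0.20. Angptl2, a secreted angiopoietin-like protein of mesenchyme (chr2:33216069-33247717 on the plus strand), was measured at 224, 216, 219.7, 270.1 and 159 CPM at E16.5 and 659, 483, 499, 536 and 481 CPM at E18.5, clearly separate (log2 fold change 1.29, SE 0.19, adjusted p = 4.89e-06, edgeR). Prrx1 was at 1110.5 to 1294 CPM at E16.5 and 1065 to 1177 CPM at E18.5 (log2 fold change -0.09, SE 0.11, adjusted p = 0.839). Of 28 genes of tendon-like and fibrous matrix, 4 rose and 1 fell (background 0.784% and 2.18%), with a median of 0.19. Tgfbi, a TGF-beta-induced matrix protein, was measured at 12, 13.7, 15.9, 19 and 14.2 CPM at E16.5 and 68.8, 37.8, 33, 46.7 and 35.6 CPM at E18.5, without overlap (log2 fold change 1.57, SE 0.39, adjusted p = 0.00969). It had an adjusted p of 0.0541 without E18.5 replicate 1 (6.85e-06 to 0.139 over the alternatives). Tnn, tenascin-W of periosteum and ligament (chr1:160085029-160153580 on the minus strand), lay at 163 to 399 CPM at E16.5 and 484 to 693 CPM at E18.5 (log2 fold change 0.90, SE 0.21, adjusted p = 0.00443). Thbs2, a matricellular thrombospondin, lay at 2138 to 3062 CPM at E16.5 and 3567 to 4268 CPM at E18.5 (log2 fold change 0.56, SE 0.14, adjusted p = 0.00856) and lost its call only with total counts alone.

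Bgn, the small proteoglycan biglycan, lay at 1146 to 1732 CPM at E16.5 and 1879.5 to 2465 CPM at E18.5 (log2 fold change 0.63, SE 0.18, adjusted p = 0.0242, edgeR). It missed the threshold without E16.5 replicate 3 (0.0796), E16.5 replicate 5 (0.0822) or E18.5 replicate 3 (0.05; 0.000267 to 0.0876 over the alternatives). Prelp, another leucine-rich proteoglycan, fell, at 72.2 to 227 CPM at E16.5 and 34.8 to 70.8 CPM at E18.5 with E16.5 replicate 5 highest (log2 fold change -1.35, SE 0.34, adjusted p = 0.00983). Its adjusted p without that library was 0.127 (0.000313 to 0.127).

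Of 27 collagen chains, 5 rose (Col15a1, Col24a1, Col27a1, Col4a1 and Col4a2) and 1 fell (background 0.784% and 2.18%), with a median of 0.30. Col27a1, a fibrillar collagen of cartilage and connective tissue (chr4:63214004-63334991 on the plus strand), was measured at 179, 177, 169, 178 and 169.9 CPM at E16.5 and 323, 295, 301, 314 and 323 CPM at E18.5. The values within each age were close together and the ages were well apart (log2 fold change 0.83, SE 0.17, adjusted p = 0.000553, edgeR). Col24a1 missed the threshold without any of E16.5 replicates 1, 3, 4 and 5 and E18.5 replicates 2, 3 and 5 (adjusted p = 0.0522 to 0.202). Col15a1, a chain of the zone between basement membrane and stroma, lay at 10.7 to 22.4 CPM at E16.5 and 21.3 to 46.5 CPM at E18.5 (log2 fold change 1.26, SE 0.23, adjusted p = 0.000115), with E18.5 replicate 4 inside the E16.5 range. Col26a1 fell, at 61 to 77.2 CPM at E16.5 and 27.6 to 47.1 CPM at E18.5 (log2 fold change -0.96, SE 0.23, adjusted p = 0.0052). Loxl2, a lysyl oxidase that crosslinks collagen (chr14:69609068-69695834 on the plus strand), was measured at 239, 316, 256, 279.8 and 238 CPM at E16.5 and 612, 459, 498, 532 and 465 CPM at E18.5, without overlap (log2 fold change 0.95, SE 0.17, adjusted p = 0.000136). It was the only one of 25 genes of collagen processing and crosslinking called in either direction (median -0.03).

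Of 18 genes of elastic fibres and microfibrils, 2 rose and 1 fell (median -0.01; background 0.784% and 2.18%). Mfap4, a microfibril-associated glycoprotein, lay at 393 to 479.8 CPM at E16.5 and 678 to 931 CPM at E18.5 (log2 fold change 0.86, SE 0.21, adjusted p = 0.00588, edgeR). Ltbp3, which anchors latent TGF-beta, lay at 108 to 143 CPM at E16.5 and 179 to 262 CPM at E18.5 (log2 fold change 0.77, SE 0.19, adjusted p = 0.00689). Both were separate between ages and lost their call only with total counts alone. Fbn1, fibrillin-1 of microfibrils (chr2:125300594-125507993 on the minus strand), was measured at 2100.5, 1492, 1585, 1180.4 and 3716 CPM at E16.5 and 1185, 1208, 889, 1018 and 681 CPM at E18.5. E16.5 replicate 5 was far the highest, and without it the adjusted p was 0.135 (with all 10 libraries: log2 fold change -1.02, SE 0.23, adjusted p = 0.00357; 0.00136 to 0.135 over the alternatives). Of 24 proteases and inhibitors, 3 rose and 1 fell (median 0.23; same background). The gelatinase Mmp2 lay at 320.2 to 449 CPM at E16.5 and 585 to 765 CPM at E18.5 (log2 fold change 0.84, SE 0.19, adjusted p = 0.0036). Its inhibitor Timp2 lay at 538 to 621 CPM at E16.5 and 757 to 913 CPM at E18.5 (log2 fold change 0.57, SE 0.15, adjusted p = 0.0148). Neither overlapped between ages, and each call was lost only with total counts alone. Adamts12 lay at 145 to 208 CPM at E16.5 and 201 to 334 CPM at E18.5 with overlap (log2 fold change 0.61, SE 0.16, adjusted p = 0.0128), and missed the threshold without E18.5 replicate 2 (0.0677; 0.00165 to 0.0984). Adamts5, an aggrecanase, fell, at 67 to 181 CPM at E16.5 and 36.4 to 56.1 CPM at E18.5 without overlap (log2 fold change -1.22, SE 0.24, adjusted p = 0.000551).

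Of 14 chondrocyte markers, 1 rose (background 0.784%), Acan, the cartilage proteoglycan aggrecan (chr7:79053483-79115099 on the plus strand), which was measured at 133, 119, 100.5, 169 and 104 CPM at E16.5 and 324, 307, 239, 222 and 237 CPM at E18.5 without overlap (log2 fold change 1.09, SE 0.24, adjusted p = 0.00284, edgeR). The defining cartilage collagen Col2a1 was measured at 201, 143, 103, 236 and 138 CPM at E16.5 and 42.3, 35.7, 39.5, 50.9 and 85.7 CPM at E18.5. All E18.5 values were below all E16.5 values, and the test was not passed (log2 fold change -1.69, SE 0.56, adjusted p = 0.0858). The list had a median of -0.56, and its sum was 334 to 663 CPM at E16.5 and 357 to 490 CPM at E18.5.

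Of 29 genes of fibroblast maturation and complement, 3 rose and 3 fell (background 0.784% and 2.18%), with a median of -0.45. Fap, fibroblast activation protein, was measured at 30.7, 37.7, 40.5, 47.2 and 48.1 CPM at E16.5 and 108, 92.9, 118, 70.8 and 89.98 CPM at E18.5, without overlap (log2 fold change 1.23, SE 0.20, adjusted p = 2.94e-05, edgeR). Abi3bp, a matrix protein of quiescent mesenchymal cells, lay at 102 to 179.7 CPM at E16.5 and 248 to 516 CPM at E18.5, also separate (log2 fold change 1.44, SE 0.29, adjusted p = 0.000513). The chemokine Cxcl12, expressed by perivascular stroma, lay at 7.83 to 10.8 CPM at E16.5 and 12.2 to 29.5 CPM at E18.5 (log2 fold change 1.31, SE 0.38, adjusted p = 0.0352). The Cxcl12 call was lost, with an adjusted p of 0.0538 to 0.0949, without any single library other than E18.5 replicate 4 (1.29e-05 to 0.44 over the alternatives).

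The 3 that fell had their highest value in E16.5 replicate 5. Cd55, an inhibitor of complement, was measured at 111, 50.6, 57.1, 23.7 and 206 CPM at E16.5 and 22.8, 35.5, 18, 21.3 and 12.3 CPM at E18.5, with overlap (log2 fold change -2.03, SE 0.36, adjusted p = 8.35e-05, edgeR), and kept its call in all 22 alternatives. Cd248, endosialin of stromal cells, lay at 53.5 to 202 CPM at E16.5 and 29.8 to 71.1 CPM at E18.5 (log2 fold change -1.13, SE 0.23, adjusted p = 0.000762) and had an adjusted p of 0.0517 without that library (0.000148 to 0.103). Clu, clusterin, lay at 1.06 to 9.71 CPM at E16.5 and 0 to 0.688 CPM at E18.5 (log2 fold change -3.20, SE 0.68, adjusted p = 0.00144).

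Signalling pathways gave few calls, read against the 0.784% of all genes that rose and the 2.18% that fell. Of 36 Wnt pathway genes, 1 rose and 4 fell (median 0.01). Dkk3, secreted and related to Wnt antagonists, was measured at 255, 222, 243, 290.3 and 250.04 CPM at E16.5 and 530.3, 329.7, 461, 438 and 389.6 CPM at E18.5 without overlap (log2 fold change 0.77, SE 0.15, adjusted p = 0.000478, edgeR). The Wnt inhibitor Dkk1 fell, at 3.61, 9.18, 5.9, 2.7 and 0.4 CPM at E16.5 and 0.469, 0.122, 0.214, 0.696 and 0.688 CPM at E18.5, with E16.5 replicate 5 inside the E18.5 range (log2 fold change -3.29, SE 0.74, adjusted p = 0.00271). The call was lost with litters summed and with limma-voom (3.98e-05 to 0.621 over the alternatives). Dkk2 lay at 16.3 to 65.9 CPM at E16.5 and 7.68 to 17.9 CPM at E18.5 (log2 fold change -1.51, SE 0.35, adjusted p = 0.00444), with an adjusted p of 0.0704 without E16.5 replicate 5 (0.00146 to 0.12 over the alternatives). Tcf7, a transcription factor of Wnt signalling, lay at 13.5 to 71.9 CPM at E16.5 and 1.1 to 25.4 CPM at E18.5, highest in E16.5 replicate 2 (log2 fold change -1.59, SE 0.40, adjusted p = 0.01). For Tcf7 the adjusted p was 0.15 without it and 0.0643 and 0.0744 without E18.5 replicates 1 and 2 (0.00104 to 0.375). The ligand Wnt10a was at 0.258, 2.42, 0.272, 0 and 0.4 CPM at E16.5 and 0.117, 0, 0, 0 and 0 CPM at E18.5, highest in E16.5 replicate 2 (adjusted p = 0.0113, and 0.292 without that library, 0.00222 to 0.568 over the alternatives that gave a value).

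Of 40 genes of the BMP and TGF-beta pathway, 1 rose (Ltbp3, above) and 3 ligands fell (median -0.26). Bmp3, an atypical ligand that opposes bone formation (chr5:98854415-98884396 on the plus strand), was measured at 78.9, 67.8, 57.2, 21.9 and 161 CPM at E16.5 and 23.8, 45.2, 16.8, 12.5 and 10.7 CPM at E18.5. E16.5 replicate 4 lay within the E18.5 range and the other 4 above it (log2 fold change -1.83, SE 0.34, adjusted p = 0.000191, edgeR), and the call was lost with only E16.5 replicates 1 to 4 and E18.5 replicates 2 to 5 and with limma-voom. Bmp7 lay at 13.6 to 34 CPM at E16.5 and 5.04 to 18.6 CPM at E18.5 (log2 fold change -1.22, SE 0.33, adjusted p = 0.0189). It had an adjusted p of 0.0563 to 0.112 without any of E16.5 replicates 1 and 5 and E18.5 replicates 1, 3 and 5 (0.000948 to 0.157 over the alternatives). Bmp2 lay at 7.3 to 14.5 CPM at E16.5 and 4.47 to 9.43 CPM at E18.5 (log2 fold change -0.90, SE 0.26, adjusted p = 0.0369). For Bmp2 the adjusted p was 0.0533 to 0.162 without any of E16.5 replicates 1, 2 and 3 and E18.5 replicates 1, 2, 4 and 5 (0.00282 to 0.661).

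Of 17 Hedgehog pathway genes, 1 rose (median 0.25). Scube2, which releases lipid-bearing Hedgehog ligand from cells, was measured at 15.6, 24.2, 20.6, 23 and 21.1 CPM at E16.5 and 66.9, 73.7, 62.4, 42.9 and 46.5 CPM at E18.5, without overlap (log2 fold change 1.49, SE 0.41, adjusted p = 0.0234, edgeR). Its adjusted p was 0.0825, 0.0532 and 0.0516 without E16.5 replicates 1, 3 and 5 and 0.0531 and 0.0677 without E18.5 replicates 1 and 2 (1.4e-06 to 0.0825 over the alternatives). The receptor and target Ptch1 was at 136 to 362 CPM at E16.5 and 124 to 357 CPM at E18.5 (log2 fold change -0.10, SE 0.21, adjusted p = 0.937). Of 16 genes of the IGF axis, 1 rose (median 0.20): Igfbp7, which was measured at 7.4, 14.1, 10.3, 7.26 and 5.7 CPM at E16.5 and 23.9, 32.3, 49.4, 22 and 21.2 CPM at E18.5 without overlap (log2 fold change 1.73, SE 0.31, adjusted p = 0.000115). The abundant Igfbp5 lay at 2634 to 3688 CPM at E16.5 and 2991 to 4080.3 CPM at E18.5 (log2 fold change 0.24, SE 0.27, adjusted p = 0.839).

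Of 24 immediate early genes, 2 fell and none rose (median 0.03), where 2.18% of all genes fell and 0.784% rose, the background for each list of this paragraph. Klf4, a transcription factor of stromal and epithelial cells (chr4:55527143-55532466 on the minus strand), was measured at 78.3, 58.2, 67, 41.3 and 96.2 CPM at E16.5 and 26.3, 29.4, 31.8, 26.4 and 24.8 CPM at E18.5, without overlap (log2 fold change -1.30, SE 0.21, adjusted p = 1.92e-05, edgeR). Klf2 lay at 4.37 to 15.4 CPM at E16.5 and 1.83 to 3.29 CPM at E18.5 (log2 fold change -1.77, SE 0.32, adjusted p = 0.000115). Of 26 genes of hypoxia and glycolysis, 2 fell (median -0.26), among them Pgk1, phosphoglycerate kinase, which lay at 23.9 to 31.8 CPM at E16.5 and 8.81 to 16 CPM at E18.5 without overlap (log2 fold change -1.10, SE 0.22, adjusted p = 0.000428). Of 15 LIN28 and let-7 target genes, 1 fell (median -0.27), Igf2bp1, an RNA-binding protein of fetal tissues, which was measured at 58.6, 47.1, 47.6, 59.2 and 56.1 CPM at E16.5 and 31.2, 34, 20.1, 41.8 and 28.3 CPM at E18.5 (log2 fold change -0.79, SE 0.18, adjusted p = 0.004). Its relative Igf2bp2 was at 67.1 to 85.1 CPM at E16.5 and 64.4 to 79.6 CPM at E18.5 (log2 fold change -0.12, SE 0.15, adjusted p = 0.844).

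The other lists gave few calls, read against the 0.784% of all genes that rose and the 2.18% that fell. Of 19 genes of the glucocorticoid response, 1 rose and 1 (Cdkn1a) fell, of 19 circadian clock genes 1 rose, of 25 imprinted growth genes 1 fell, and of 14 retinoic acid genes 1 fell. None of 26 FGF and ERK feedback, 16 Notch, 28 interferon and antigen presentation, 29 skull patterning, 7 osteoclast regulator and 4 sex-linked genes was called. The interferon list had the highest median of these lists, 0.58, with 23 of 28 positive estimates. Its abundant member B2m, the light chain of MHC class I, was at 102 to 141 CPM at E16.5 and 104 to 147 CPM at E18.5 (-0.03 on the log2 scale). Fgfr2 was at 281 to 504 CPM at E16.5 and 227 to 429 CPM at E18.5 (log2 fold change -0.40, SE 0.14, adjusted p = 0.116, edgeR). Notch2 was at 274 to 349 CPM at E16.5 and 260.5 to 331 CPM at E18.5 (-0.13).

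**Figure D4:**
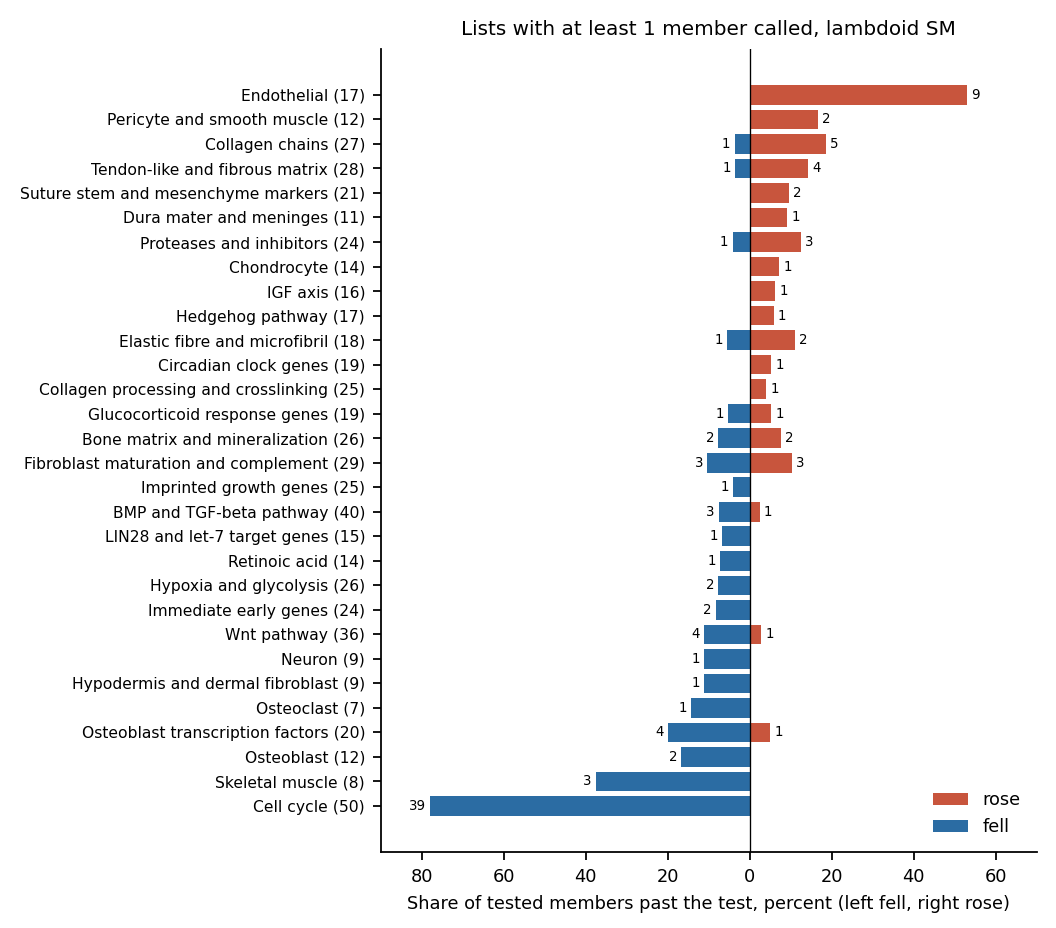
Share of the tested members of each list (percent, members tested in parentheses) that fell (left, blue) or rose (right, red) in lambdoid SM from E16.5 to E18.5, for lists with at least 1 member called and with the number called beside each bar. The cell cycle list (39 of 50 fell) has the longest bar to the left and the endothelial list (9 of 17 rose) the longest to the right, against 2.18% and 0.784% of all genes tested. The lists were chosen with earlier results of these data known.

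Among the other cell types that a captured region can hold, skeletal muscle was highest in 1 library, E16.5 replicate 5, and its 3 age calls were each lost without it. Of 8 muscle genes tested, 3 fell (background 2.18%) and none had a positive estimate (median -2.56). Their sum was 151, 83.5, 165, 65.4 and 939 CPM at E16.5 and 73.7, 90.5, 25, 22.5 and 30.4 CPM at E18.5, with overlap, and highest by far in E16.5 replicate 5. Actc1 was measured at 31.2, 18.1, 35.1, 12.8 and 178 CPM at E16.5 and 2.93, 8.81, 2.57, 0 and 3.32 CPM at E18.5 (log2 fold change -3.96, SE 1.15, adjusted p = 0.0362, edgeR). All 5 E16.5 values were above those of E18.5. Its log2 fold change was -2.77 and its adjusted p 0.312 without that library, with an adjusted p of 0.0533 without E16.5 replicate 1 and 0.0885 to 0.103 without E18.5 replicate 1, 3, 4 or 5 (0.000186 to 0.312 over the alternatives). Ttn lay at 11.5 to 476 CPM at E16.5 and 10.2 to 48.2 CPM at E18.5 and had a log2 fold change of -0.53 and an adjusted p of 0.862 without E16.5 replicate 5, and an adjusted p of 0.074 to 0.0863 without E18.5 replicate 3, 4 or 5 (0.00808 to 0.862). Mylpf lay at 2.05 to 24.2 CPM at E16.5 and 0.469 to 1.07 CPM at E18.5 and had a log2 fold change of -2.06 and an adjusted p of 0.377 without E16.5 replicate 5, with the call lost without any single library other than E16.5 replicates 2 and 4 (0.000474 to 0.377). E16.5 replicate 5 was the highest of its age for other genes too, among them Fbn1, Prelp, Cd248, Cd55, Clu, Osr1, Sdk1, Dkk2, Tek, Bmp3 and Klf4. The part of neighbouring tissue in those values was not tested.

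Blood cell RNA varied between libraries of the same age. The erythroid sum was 958 to 3171 CPM at E16.5 and 388 to 989 CPM in 4 E18.5 libraries, with 6916 CPM in E18.5 replicate 5, and none of 10 genes tested was called. None of 19 macrophage, 8 mast cell, 2 lymphocyte, 5 epidermal, 7 Schwann cell and 4 adipocyte markers was called. The macrophage sum was 368 to 720 CPM at E16.5 and 424 to 704 CPM at E18.5, and that of the mast cell list 308 to 510 CPM and 316 to 494 CPM. Neutrophil markers summed to at most 1.88 CPM in any library and none passed the filter on low counts. Of 7 osteoclast, 9 hypodermal and 9 neuronal markers, 1 of each fell (background 2.18%), namely Itgb3, Crabp1 and Gap43. The osteoclast list had a median of -0.03, with 3 positive and 4 negative estimates. The hypodermal list had a median of -0.81, with 8 of 9 estimates negative, and the neuronal list -0.995, with all 9 negative. Of 11 meningeal markers 1 rose (background 0.784%), Cxcl12, whose call was lost without most single libraries, as described above. The sum of the neuronal list was 60.8 to 109 CPM at E16.5 and 24.7 to 43.6 CPM at E18.5, without overlap.

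The change in SM was then set against that in the OFs of the same embryos, in the same fit, as the SM change less the mean of the interparietal and parietal OF changes. Of 19768 genes, 25 differed (0.126%), 8 with a more positive and 17 with a more negative change in SM, and the count was 15 to 58 when 1 lambdoid SM library was left out (58 without E16.5 replicate 4, 16 and 15 without E18.5 replicates 1 and 2). The SM and OF libraries came from the same embryos, which this fit leaves out of account. In a fit of the 30 lambdoid libraries alone 1.01% of genes differed, and 1.61% (315 genes) with a replicate block by embryo, where all 13 of the genes named below were called. With limma-voom none was called, at 550 genes with an unadjusted p under 0.05 (967 with edgeR). A share of 5% of the genes tested is 988, and neither count exceeded it. In the OFs alone, 0.228% of genes rose and 0.0607% fell in the interparietal OF, and 0.637% and 0.349% in the parietal OF. Aplnr changed by -0.27 in the interparietal and 0.49 in the parietal OF (difference 2.60 log2 units, SE 0.49, adjusted p = 0.0033, edgeR), and Kdr by -0.35 and 0.01 (difference 1.83 log2 units, SE 0.35, adjusted p = 0.0033). At E16.5 the level of Kdr in SM less that in the OFs was -1.72 on the log2 scale (adjusted p = 1.43e-07), and at E18.5 it was 0.12 (adjusted p = 0.773). The same difference of Aplnr was -2.73 (adjusted p = 1.63e-08) at E16.5 and -0.13 (adjusted p = 0.817) at E18.5.

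Cxcl12 (difference 2.34 log2 units, SE 0.47, adjusted p = 0.00594, edgeR), Col15a1 (difference 1.40 log2 units, SE 0.27, adjusted p = 0.00463) and Socs2 (difference 1.31 log2 units, SE 0.28, adjusted p = 0.0102) also had a more positive change in SM. Socs2 itself changed by 1.66 in the interparietal OF (adjusted p = 1.42e-06) and 0.81 in the parietal OF (adjusted p = 0.0529), so that the difference was one of size. On the negative side, Cdkn1a changed by 0.57 and 0.12 in the OFs (difference -2.17 log2 units, SE 0.37, adjusted p = 0.00115). Klf4 (difference -1.28 log2 units, SE 0.25, adjusted p = 0.00463) and Bmp3 (difference -2.13 log2 units, SE 0.41, adjusted p = 0.00387) differed in the same direction, as did Klf2, Anxa5, Tpm2, Ncaph and Uhrf1 (differences of -1.58, -1.01, -0.86, -0.85 and -0.91, adjusted p = 0.0481, 0.0324, 0.0463, 0.0306 and 0.0329). Each of the 13 differences named was lost with limma-voom, and 6 of them, all on this side, also without 1 library or another.

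Bmp3 had an adjusted p of 0.0699 for this difference without E16.5 replicate 5 (0.000205 to 0.573 over the 20 alternatives, edgeR and the other tools). Uhrf1 had 0.119 and 0.0731 without E16.5 replicates 1 and 3 and 0.135 and 0.0943 without E18.5 replicates 2 and 5 (0.00387 to 0.316). Anxa5, a phospholipid-binding annexin, had 0.0507 to 0.111 without any of E16.5 replicates 1 and 5 and E18.5 replicates 2, 3, 4 and 5 (0.00062 to 0.613). Klf2 had 0.054 to 0.25 without E16.5 replicate 1 or 5 or any E18.5 library (0.0148 to 1). Ncaph had 0.0678 to 0.139 without E16.5 replicate 1 or 2 or E18.5 replicate 1, 2 or 5 (0.00328 to 0.589), and Tpm2, a tropomyosin, 0.0573 to 0.131 without E16.5 replicate 1, 3 or 5 or E18.5 replicate 1, 2, 4 or 5 (0.00118 to 0.613).

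Of 50 cell cycle genes, 1 (Uhrf1) had a change that differed from that of the OFs (0.126% of all genes). In the fit of the 30 lambdoid libraries 5 were more negative in SM (1.01% of all genes differed), and 15 with the replicate block by embryo (1.61%). The members had a median change of -0.41 in each OF, with none called in the interparietal OF (0.0607% of all genes fell) and 2 in the parietal OF (0.349%). The estimates there were negative for 50 and 48. The endothelial list had medians of -0.50 and 0.12 in the OFs with none called (0.228% and 0.637% of all genes rose). Of its 17 members, 2 (Aplnr and Kdr) differed, against 7 in the fit of the 30 lambdoid libraries and 9 with the block by embryo. All were more positive in SM, and the shares of all genes that differed in these fits are those given above.

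The SM of the coronal, frontal and sagittal sutures gave the second setting. The change in lambdoid SM less the mean change in the other SM differed for 99 genes (0.501%), 20 with a more positive and 79 with a more negative change in lambdoid SM. The count was 49 without E16.5 replicate 1, 55 without E16.5 replicate 5, 64 without E18.5 replicate 1 and 14 with limma-voom. This comparison shares the lambdoid SM libraries with those above. Lambdoid SM replicate 5 of E18.5 and sagittal SM replicates 1 to 3 of E18.5 came from different embryos of 1 litter, which the fit leaves out of account, and without that lambdoid library 81 genes differed. Age changes were far more numerous in coronal SM (13.5% of genes higher and 13.6% lower) than in frontal (1.11% and 1.22%) or sagittal SM (0.526% and 0.592%). A difference from the mean of the 3 can thus lie in the coronal suture. The coronal libraries were also deeper, at 20133332 to 28469158 counts, and the part of depth in their number of calls was not tested. Mitochondrial genes took 25.7 to 51% of counts in coronal SM at E16.5 and 20.7 to 25.9% at E18.5, the opposite order to that in lambdoid, frontal and sagittal SM by their medians. With mitochondrial genes left out before scaling, 96 genes differed.

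Aplnr changed by -0.50 in coronal, -0.82 in frontal and 1.13 in sagittal SM (difference 2.77 log2 units, SE 0.46, adjusted p = 0.000128, edgeR). Kdr changed by -0.16, -0.80 and 0.86 (difference 1.69 log2 units, SE 0.33, adjusted p = 0.00141). For both, sagittal SM was the only one of the 3 with a positive estimate. Flt1 (difference 1.54 log2 units, SE 0.37, adjusted p = 0.0269) and Podxl (difference 1.75 log2 units, SE 0.40, adjusted p = 0.0157) were also more positive in lambdoid SM. Flt1 missed the threshold, at 0.0632 to 0.0906, without E16.5 replicate 1, 3 or 5 or E18.5 replicate 3 (0.00509 to 0.383 over the 19 alternatives), and Podxl, at 0.06, without E16.5 replicate 3 (0.00225 to 0.217). Socs2 rose in every SM, by 2.74, 3.16 and 2.27 in coronal, frontal and sagittal SM (adjusted p = 9.67e-15, 1.14e-18 and 8.16e-12).

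On the negative side, Cdkn1a changed by 1.09, -0.30 and -0.30 in the other SM (difference -1.99 log2 units, SE 0.35, adjusted p = 0.000395, edgeR), Ackr3 by 2.22, -0.34 and -0.86 (difference -1.93 log2 units, SE 0.37, adjusted p = 0.00107), and Pgk1 by 1.07, 0.06 and 0.28 (difference -1.57 log2 units, SE 0.25, adjusted p = 6.15e-05). For each of Cdkn1a, Ackr3 and Pgk1 the coronal estimate was the highest of the 3, and the change in lambdoid SM itself was -1.82, -1.59 and -1.10. Of 26 genes of bone matrix and mineralization, 2 differed from the other SM (0.501% of all genes), both more negative in lambdoid SM. They were Alpl (difference -1.57 log2 units, SE 0.36, adjusted p = 0.0138), which changed by 0.31, -0.30 and 0.79 in coronal, frontal and sagittal SM, and Fam20c (difference -3.00 log2 units, SE 0.64, adjusted p = 0.00626), which changed by 2.96, -1.39 and 0.25. Of 20 osteoblast transcription factors 1 differed, Dlx3 (difference -4.39 log2 units, SE 0.93, adjusted p = 0.00621), with changes of -0.76, 0.34 and 2.86. Alpl had an adjusted p of 0.0539 to 0.0734 without E16.5 replicate 2 or 3 or E18.5 replicate 1 or 2 (0.00221 to 0.503 over the alternatives), and Dlx3 0.11 without E16.5 replicate 2 (2.46e-05 to 0.558). All 3 of these bone genes missed the threshold in the 40 SM libraries alone, with and without the replicate block (Fam20c 0.000117 to 0.0916 over the alternatives).

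No cell cycle gene differed from the other SM. The list fell in frontal SM (28 of 50, median -0.75) and in sagittal SM (27 of 50, median -0.90), and had 11 falls and 2 rises in coronal SM (median -0.09). Over all genes, 1.22%, 0.592% and 13.6% fell in frontal, sagittal and coronal SM, and 1.11%, 0.526% and 13.5% rose. Of the endothelial list, 3 of 17 differed (0.501% of all genes). Its median was 0.15 in coronal SM and -0.62 in frontal SM, with 1 rise and 1 fall in each, and 0.89 in sagittal SM with 2 rises.

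**Figure D5:**
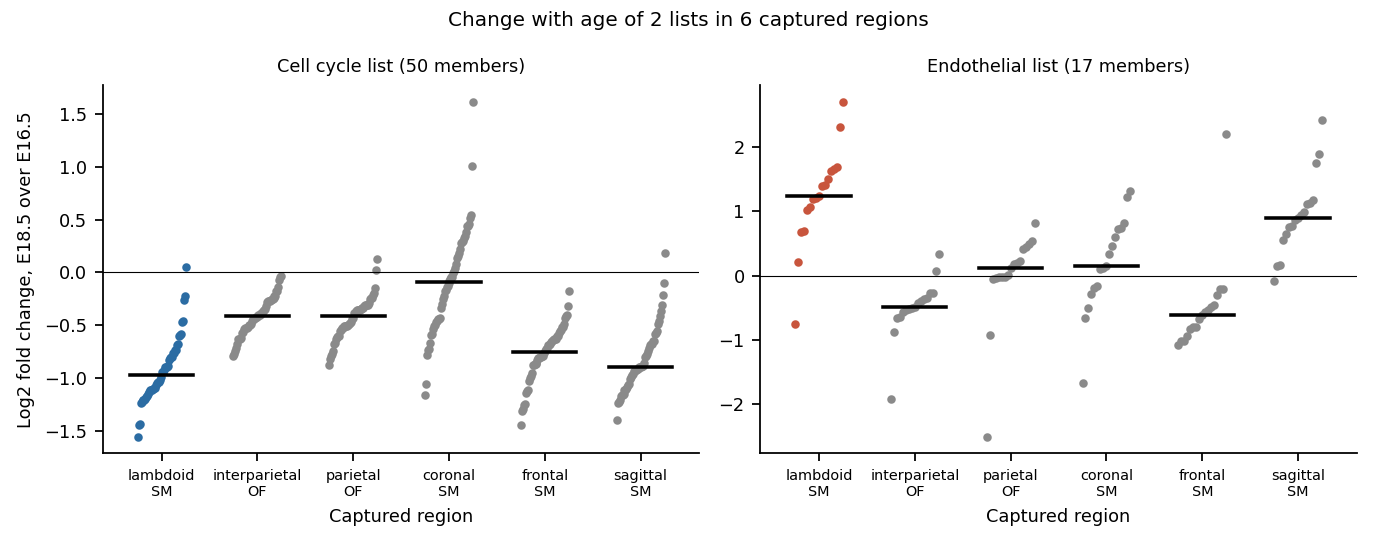
Change with age (log2 fold change E18.5 over E16.5) of each tested member of the cell cycle list (50 genes) and the endothelial list (17 genes) in lambdoid SM, both lambdoid OFs and the SM of 3 other sutures, with a line at the median. Cell cycle medians run from -0.97 in lambdoid SM to -0.09 in coronal SM, and endothelial medians from 1.24 in lambdoid SM to -0.62 in frontal SM.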

How the data were processed

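Laser-captured lambdoid SM of 10 WT embryos was compared between E16.5 (n = 5) and E18.5 (n = 5), with 20 lambdoid OF libraries and 30 SM libraries of the coronal, frontal and sagittal sutures as settings. Per the paper's methods and the submitters' processing notes, the authors amplified the RNA, sequenced it, trimmed reads with cutadapt, aligned them with STAR 2.5.3a to mm10 and deposited whole-number counts per GENCODE vM22 gene from featureCounts 1.6.4, counted without regard to strand, so that overlapping genes on opposite strands cannot be told apart. Of 55487 gene IDs, 55394 were paired with a symbol. The libraries held 7305627 to 9667927 counts, which sets the precision of low genes; intervals were not computed, and replicate spread is given instead.

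Genes with at least 1 CPM in more than 10% of 100 libraries (first libraries of 20 region and age groups) were kept, 19768 in all, and tested with edgeR 4.0.16 (TMM, quasi-likelihood F-test, 1 mean per group, R 4.3.3), two-sided, with Benjamini-Hochberg adjusted p under 0.05. CPM values are on TMM-scaled library sizes. The SE given was derived from the test, as the absolute log2 fold change over the square root of the F statistic, and is no separate estimate. The lists and members were chosen with earlier results of these data known. Genes named were the 12 largest rises and falls among called genes with at least 20 CPM and no overlap between ages, up to 4 called genes per direction and 2 abundant others of each list, the 6 largest differences per direction against OFs and other SM, and the 10 most abundant genes, and fewer are described where lists were given by counts. Results of some genes are not reported here. Promoter windows came from RefSeq (GRCm38.p6).

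Same-numbered SM libraries of both ages were different embryos, and their residuals correlated at -0.051 to 0.004, so that the numbers pair nothing. Alternatives were other scaling, filters, sample sets, a replicate block, litters summed, and embryos of litters with 17 in the label. Others were each library left out, limma 3.58.1 (voom) and DESeq2 1.42.0. Simulated counts with 100 genes changed 2-fold and 100 changed 4-fold gave 26 and 64 recovered and 6 false calls among 19441 genes. Coronal second libraries, complete sutures and single cells were left out.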

Additional observations from a re-analysis of the deposited data

Results flagged for a closer look

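Among 232 groups of 5 values looked at, 23 had a library far from the other 4 of its age (Dixon's test, critical value 0.710). A rate of 1 in 20 would give 11.6, but that rate holds for independent values with a normal spread. These were untransformed CPM values of genes and list sums from the same libraries, so 23 against 11.6 measures no excess. E16.5 replicate 5 gave 7 of them. In that library the skeletal muscle list summed to 939 CPM, and Actc1 stood at 178 CPM, Ttn at 476 CPM, Myh3 at 108 CPM and Mylpf at 24.2 CPM, each the highest of E16.5. Its Tek value was also the highest, 59.6 CPM, and its Mcam value the lowest, 4.70 CPM.

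E16.5 replicate 2 was far the highest of its age for Ibsp, at 189 CPM, for Dlx3, at 14.1 CPM, and for Wnt10a, at 2.42 CPM. E18.5 replicate 5 had the highest erythroid sum, 6916 CPM, with Hbb-bs at 3804 CPM, and the lowest Ccnd2, 337 CPM. E18.5 replicate 4 was the highest of its age for Enpp1, at 60.2 CPM, and for Hist1h1b, at 15.3 CPM. E18.5 replicate 3 was the highest for Bmp2, at 9.43 CPM, and for Slc6a6, at 258 CPM. E18.5 replicate 2 was the highest for Ostn, at 42.4 CPM, and the lowest for Plk1, at 5.51 CPM. E18.5 replicate 1 was the highest for Myh3, at 3.64 CPM, and for Wnt10a, at 0.117 CPM. At E16.5, replicate 4 was the highest for Col4a1, at 166 CPM, and replicate 3 the lowest for Socs2, at 7.71 CPM.

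The change with age differed from that of the lambdoid OFs for 13 genes described (differences on the log2 scale, edgeR). It was more positive in SM for Aplnr (2.60), Cxcl12 (2.34), Kdr (1.83), Col15a1 (1.40) and Socs2 (1.31), and more negative for Cdkn1a (-2.17), Bmp3 (-2.13), Klf2 (-1.58), Klf4 (-1.28), Anxa5 (-1.01), Uhrf1 (-0.91), Tpm2 (-0.86) and Ncaph (-0.85). Against the SM of the other sutures it was more positive for Aplnr (2.77), Podxl (1.75), Kdr (1.69), Plxnb1 (1.6), Flt1 (1.54) and Slc6a6 (0.77). It was more negative for Myh3 (-6.98), Dlx3 (-4.39), Clu (-3.03), Fam20c (-3.00), Cdkn1a (-1.99), Ackr3 (-1.93), Crip1 (-1.70), Alpl (-1.57), Pgk1 (-1.57), Ppa1 (-1.43), Anxa5 (-1.37) and Tpm2 (-1.02). Among the differences given only here, that of Plxnb1, the semaphorin receptor plexin B1, was lost without any single library other than E18.5 replicate 4 (adjusted p = 0.0524 to 0.105, 0.00963 to 0.354 over 19 alternatives). That of Slc6a6, the taurine transporter, was lost without E16.5 replicate 1 or 5 or E18.5 replicate 3 (0.0644 to 0.0897, 0.00509 to 0.154), that of Myh3 without E16.5 replicate 5 (0.177) or any of E18.5 replicates 2 to 5 (0.0648 to 0.0788, 0.0115 to 0.302), and that of Clu without E16.5 replicate 5 (0.224), E16.5 replicate 1 or E18.5 replicate 1, 2 or 3 (0.0626 to 0.0967, 0.00679 to 0.224).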

How the results depend on the processing

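The count of 585 changed genes became 902 with total counts alone (87 higher, 815 lower), 1804 in a fit of the 30 lambdoid libraries (573 and 1231), 1336 in a fit of the 10 SM libraries (631 and 705), 320 with litters summed (141 and 179) and 223 with limma-voom (78 and 145). With only E16.5 replicates 1 to 4 and E18.5 replicates 2 to 5 it was 660, of which 303 were higher, and with DESeq2 776, of which 288 were higher. Leaving out 1 library gave 386 to 578 genes, 98 to 157 higher and 259 to 436 lower. The fewest were called without E16.5 replicate 1 (386 in all, 98 higher), and the fewest lower genes without E18.5 replicate 2 (259) and replicate 1 (278). A replicate block, in the fit of the 30 lambdoid libraries, gave 1811 (548 higher and 1263 lower), close to the 1804 of the same libraries without the block; the replicate numbers do not pair the embryos of the 2 ages.

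The share of genes whose change differed from that of the OFs, 0.126% (25 genes), became 0.207% with total counts alone, 0.0894% with no filter on low counts, 1.01% in the 30 lambdoid libraries, 1.12% there with the replicate block, 1.61% with a replicate block by embryo, 0.339% with DESeq2 and 0% with limma-voom, and 0.0751 to 0.29% without 1 library. The residuals of an embryo's SM library and its OF libraries correlated at -0.001 to 0.134. The 99 differences from the other SM became 315 with total counts alone, 149 in the 40 SM libraries, 210 with DESeq2, 14 with limma-voom and 49 to 108 without 1 library. The replicate block gave 87 there.

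Of 100 genes named as changed with age, 31 were called under each of the 22 alternatives, 42 lost their call without 1 library or another, and none changed sign. The calls lost numbered 52 with limma-voom, 15 with total counts alone, 21 with only E16.5 replicates 1 to 4 and E18.5 replicates 2 to 5, and 20 with litters summed (Acat2, Adamts12, Alpl, Bmp2, Bmp7, Dkk1, Dlx3, Emcn, Eng, Fads2, Hmgcs1, Insig1, Mcam, Mef2c, Msmo1, Ncaph, Pgk1, Runx1, Sp7 and Tcf7). Of 13 described as different from the OFs none was called under each of 20 alternatives, and of 18 different from the other SM 3 were, under 19. The causes of these shifts were not tested. At this number of libraries and depth, 26 of 100 simulated 2-fold changes were recovered, so a missed call does not show that a gene was at the same level.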

Other observations

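Genes of sterol and fatty acid synthesis were looked at after their values were seen, from no list set beforehand, and no count is tested. Of all genes tested, 2.18% fell. In lambdoid SM, Cyp51 (-1.17 on the log2 scale from E16.5 to E18.5, edgeR adjusted p = 0.000535), Insig1 (-1.05, 0.0036), Msmo1 (-1.37, 0.0159), Hmgcs1 (-0.80, 0.017) and Acat2 (-0.86, 0.0487) fell, while Sqle (-0.71, 0.0858), Idi1 (-0.94, 0.402) and Fdps (-0.42, 0.836) did not pass the test. Of these, Cyp51, Msmo1, Hmgcs1, Sqle, Idi1 and Fdps encode enzymes of cholesterol synthesis, and Insig1 a regulator of the pathway. The fatty acid enzymes Elovl6 (-1.10, 0.000194) and Fads2 (-0.82, 0.0402) fell with Scd1. Without 1 library, Msmo1 missed the threshold in 3 of 10 cases (adjusted p = 0.0836 to 0.103), Hmgcs1 in 5 (0.0505 to 0.0952), Fads2 in 6 (0.0813 to 0.196) and Acat2 in 8 (0.0581 to 0.288). Each of these 4 did so without E18.5 replicate 2 and without E16.5 replicate 1, among others. With limma-voom the call was lost for Scd1 and each of the other 7 that fell, and with litters summed for Insig1, Msmo1, Hmgcs1, Acat2 and Fads2. None of these 10 genes differed in its change from the OFs or from the other SM.

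Among abundant genes that fell were the tubulins Tuba1b (344 to 163 CPM on average, -1.08, 0.000478), Tuba1a (228 to 121 CPM, -0.91, 0.00414) and Tubb5 (541 to 335 CPM, -0.69, 0.0031), and the mitochondrial chaperone Hspd1 (129.6 to 75.6 CPM, -0.78, 0.00681). Hspd1 missed the threshold without E18.5 replicate 2 (0.062).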
